A study of Homo sapiens with 9 samples.

Results

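The genes examined were the insulin-like growth factor binding proteins IGFBP1 to IGFBP7, the growth factor IGF2, and the receptors IGF1R and INSR. They were taken by symbol from a table of 36225 genes, in which all 10 had a row. Poly(A) RNA had been sequenced from RBE, a human cell line established from an intrahepatic cholangiocarcinoma, a tumour of the bile ducts within the liver. The cells carried a lentiviral short hairpin RNA against IDH1 (shIDH1), a short hairpin RNA against JOSD2 (shJOSD2) or a scramble sequence (control), with 3 libraries per group and 9 in all. All groups shared the parental line, which the series title describes through mutant IDH1, and all had been infected with lentivirus. The labels give no drug, selection or harvest time, and name 1 hairpin per target. Whether the 3 libraries of a group are separate infections or cultures is not stated, so the p-values speak of the spread among libraries, and that spread may be technical.

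Insulin-like growth factors are secreted peptides that signal through the tyrosine kinase IGF1R, and IGF2 also binds the A isoform of the insulin receptor INSR. IGFBP1 to IGFBP6 hold these peptides with high affinity outside the cell, which prolongs their life and keeps them from the receptors until the complex is cleaved or tethered to matrix. IGFBP7 binds them weakly and is a matrix-associated relative. In the liver, IGFBP1 is a classic hepatocyte product under insulin and forkhead (FOXO) control, and IGF2 is a fetal hepatic growth factor that reappears in liver tumours.

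The binding proteins share a cysteine-rich amino-terminal domain, and IGFBP6, which prefers IGF2 to IGF1, departs from it at a recognisable place. The homologous stretch of 30 bases in the coding sequence of a GENCODE v29 transcript is shown for each family member because it sets IGFBP6 apart. Capitals mark the in-frame cysteine codons.
IGFBP1: tccgccggcTGCggcTGTTGCccgatgTGC
IGFBP2: gagccgggcTGCggcTGCTGCtcggtgTGC
IGFBP3: gagccgggcTGCggcTGCTGCctgacgTGC
IGFBP4: gagccgggcTGCggcTGTTGCgccactTGC
IGFBP5: gagccgggcTGCggcTGCTGCatgaccTGC
IGFBP6: gccgagggcTGCgcggaagctgagggcTGT
IGFBP7: cgcgacgcgTGCggcTGCTGCcctatgTGC
The stretch held 4 cysteine codons in IGFBP1 to IGFBP5 and in IGFBP7, and 2 in IGFBP6. It started at codon 50 in IGFBP4 and IGFBP5 and at codon 54 in IGFBP1, IGFBP6 and IGFBP7. Over the whole reading frame IGFBP4 had 21 cysteine codons in 258, the most of the family, and IGFBP6 had 16 in 240, the fewest. A run of codons for arginine, glycine and aspartate, the RGD tripeptide that integrins recognise, occurred once in IGFBP1 and once in IGFBP2 and in no other family member.

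The members lie on several chromosomes of GRCh38, with neighbours in 2 cases. IGFBP1 (ENSG00000146678; chr7:45888360-45893660, plus strand) and IGFBP3 (ENSG00000146674; chr7:45912245-45921274, minus strand) stand next to each other on chromosome 7. IGFBP2 (ENSG00000115457; chr2:216632828-216664436, plus strand) and IGFBP5 (ENSG00000115461; chr2:216672105-216695549, minus strand) do so on chromosome 2. IGFBP4 (ENSG00000141753) is at chr17:40443450-40457725 and IGFBP6 (ENSG00000167779) at chr12:53097436-53102345, both on the plus strand. IGFBP7 (ENSG00000163453) is at chr4:57030773-57110385 and IGF2 (ENSG00000167244) at chr11:2129112-2141238, both on the minus strand. IGF1R (ENSG00000140443) is at chr15:98648539-98964530 on the plus strand and INSR (ENSG00000171105) at chr19:7112255-7294414 on the minus strand.

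RefSeq promoter windows on GRCh38.p14, from 250 bases before to 50 after an annotated start, were searched on both strands for 3 short motifs, which do not overlap one another here: the core bound by TEAD factors, GGAATG, the core bound by forkhead factors, GTAAACA, and the TATA box of many promoters, TATAAA. Of 35114 such windows 14% held the TEAD core, 3.42% the forkhead core and 11.5% the TATA box. The windows of IGFBP4, IGFBP6 and IGFBP3 are shown because these binding proteins went different ways in the cells described next; capitals mark the motifs found.
IGFBP4 (chr17:40443200-40443499, plus strand): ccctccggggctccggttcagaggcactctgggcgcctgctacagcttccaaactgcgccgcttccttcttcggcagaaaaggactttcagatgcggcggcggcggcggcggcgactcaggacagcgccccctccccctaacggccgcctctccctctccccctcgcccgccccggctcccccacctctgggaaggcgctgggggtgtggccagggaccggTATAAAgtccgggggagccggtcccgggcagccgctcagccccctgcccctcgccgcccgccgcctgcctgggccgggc
IGFBP6 (chr12:53097417-53097716, plus strand): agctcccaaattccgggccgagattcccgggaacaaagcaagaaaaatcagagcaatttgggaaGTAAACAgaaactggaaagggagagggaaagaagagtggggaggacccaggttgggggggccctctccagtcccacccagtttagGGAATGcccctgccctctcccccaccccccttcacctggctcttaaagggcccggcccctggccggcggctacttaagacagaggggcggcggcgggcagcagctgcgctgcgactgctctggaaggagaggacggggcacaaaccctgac
IGFBP3 (chr7:45921223-45921522, minus strand): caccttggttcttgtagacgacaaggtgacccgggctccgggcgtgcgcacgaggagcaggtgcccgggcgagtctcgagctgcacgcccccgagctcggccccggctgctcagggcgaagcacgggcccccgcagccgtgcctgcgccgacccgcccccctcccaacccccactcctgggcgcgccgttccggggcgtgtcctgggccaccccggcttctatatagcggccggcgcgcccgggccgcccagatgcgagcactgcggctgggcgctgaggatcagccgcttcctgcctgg
The IGFBP4 window held 1 TATA box, the IGFBP6 window 1 forkhead core and 1 TEAD core, and the IGFBP3 window none of these letters. The windows of IGF1R, INSR and IGFBP2 held none of them either, and that of IGFBP5 held 1 TEAD core. No window was available for IGFBP1, IGFBP7 or IGF2, so the search does not cover them. A match is a run of letters, not a measured binding site.

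Library totals lay between 66036276 and 71612713 deposited counts. Low counts gathered at multiples of 4, with 10737 values of 4 beside 5505 of 3 and 3780 of 5. Values of 1 (9771) and 2 (8761) were common too. A fragment may often have been entered as about 4 counts, and low genes may then rest on fewer fragments than their counts. Levels are given in FPKM, a fragment number scaled to the length of the transcript and the size of the library. This allows genes to be compared per length. Fitted log2 changes, and the folds given with them, come from counts with a further scaling between libraries (TMM). They can therefore differ from the ratio of mean FPKM. Each targeted transcript was lowest with its own hairpin, but each was also lower than control with the other. The log2 changes of IDH1 and JOSD2 against control were -1.80 and -1.90 in shIDH1 and -0.50 and -3.09 in shJOSD2. IDH1 stood at 12.4, 13.1 and 12.3 FPKM in shIDH1 libraries, at 32.7, 35.2 and 35.5 in shJOSD2 libraries and at 45.6, 39.0 and 47.4 in control libraries. JOSD2 stood at 1.51, 1.85 and 1.70 FPKM in shIDH1 libraries and at 0.771, 0.708 and 0.906 in shJOSD2 libraries, against 6.66, 6.31 and 6.15 in control libraries, so the JOSD2 transcript was low with both hairpins. Of 5 cholangiocyte markers, KRT7, KRT19, EPCAM and SOX9 averaged over 10 FPKM in every group and CFTR was near 0. KRT7 and EPCAM were lower in shIDH1 than in control (log2 -0.88 and -0.21). In shJOSD2 KRT7 and KRT19 were lower (-0.34 and -0.58) and SOX9 was higher (0.54). The EPCAM call was lost with upper-quartile scaling (-0.10, edgeR adjusted p = 0.193) and without control replicate 3 (-0.17, edgeR adjusted p = 0.0555). The KRT7 call in shJOSD2 was lost with library sizes as the sole scaling (-0.19, edgeR adjusted p = 0.104). It was also lost in limma on FPKM (-0.18 and -0.19) and without shJOSD2 replicate 2 (-0.32). The 5 leukocyte markers summed to 25.2 to 28.5 FPKM in shIDH1, 23.8 to 32.2 in shJOSD2 and 31.3 to 38.4 in control libraries, mostly from CD68, which was lower with either hairpin (-0.40 and -0.60), while all 5 endothelial markers were under 1 FPKM in every library. Nuclear-retained transcripts (MALAT1, NEAT1 and KCNQ1OT1), a sign of RNA quality, summed to 35.5 to 37.0 FPKM in shIDH1 libraries, 32.3 to 34.4 in shJOSD2 libraries and 21.1 to 29.2 in control libraries. MALAT1 and NEAT1 made up most of that sum, while KCNQ1OT1 averaged 0.0978 FPKM in shIDH1 and 0.202 FPKM in control libraries. The part of the markers and of these transcripts in the results was not tested.

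Both hairpins changed most of the IGF axis transcripts at an adjusted p under 0.05 (edgeR quasi-likelihood test, Benjamini-Hochberg adjustment over 21492 tested genes). In shIDH1 against control, 5 of the 10 genes rose (IGFBP3, IGFBP6, IGFBP7, IGF1R and INSR), 3 fell (IGFBP2, IGFBP4 and IGF2) and 2 did not pass (IGFBP1 and IGFBP5). In shJOSD2 against control, 2 rose (IGFBP3 and IGF1R), 6 fell (IGFBP1, IGFBP2, IGFBP4, IGFBP6, IGF2 and INSR) and 2 did not pass (IGFBP5 and IGFBP7). Changes were widespread among all tested genes. In shIDH1 against control 50.1% of them were called, 24.5% as higher and 25.6% as lower, and in shJOSD2 against control 38.3% were called, 18.2% as higher and 20.1% as lower. Against these backgrounds the number of IGF axis genes called is of limited weight, and the sizes and directions of the single changes carry the description. The median log2 change of the 10 genes was 0.55 in shIDH1 and -0.46 in shJOSD2 cells, beside 0.01 and 0.03 over all tested genes. With control replicate 1 as the sole control these medians were 0.553 and -0.461, beside 0.0543 and 0.065 over all tested genes. All 10 passed the filter on low counts, IGFBP5 and IGFBP7 at low levels. In whole cultures, fewer cells of a kind and less RNA per cell cannot be told apart.

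**Figure D1:**
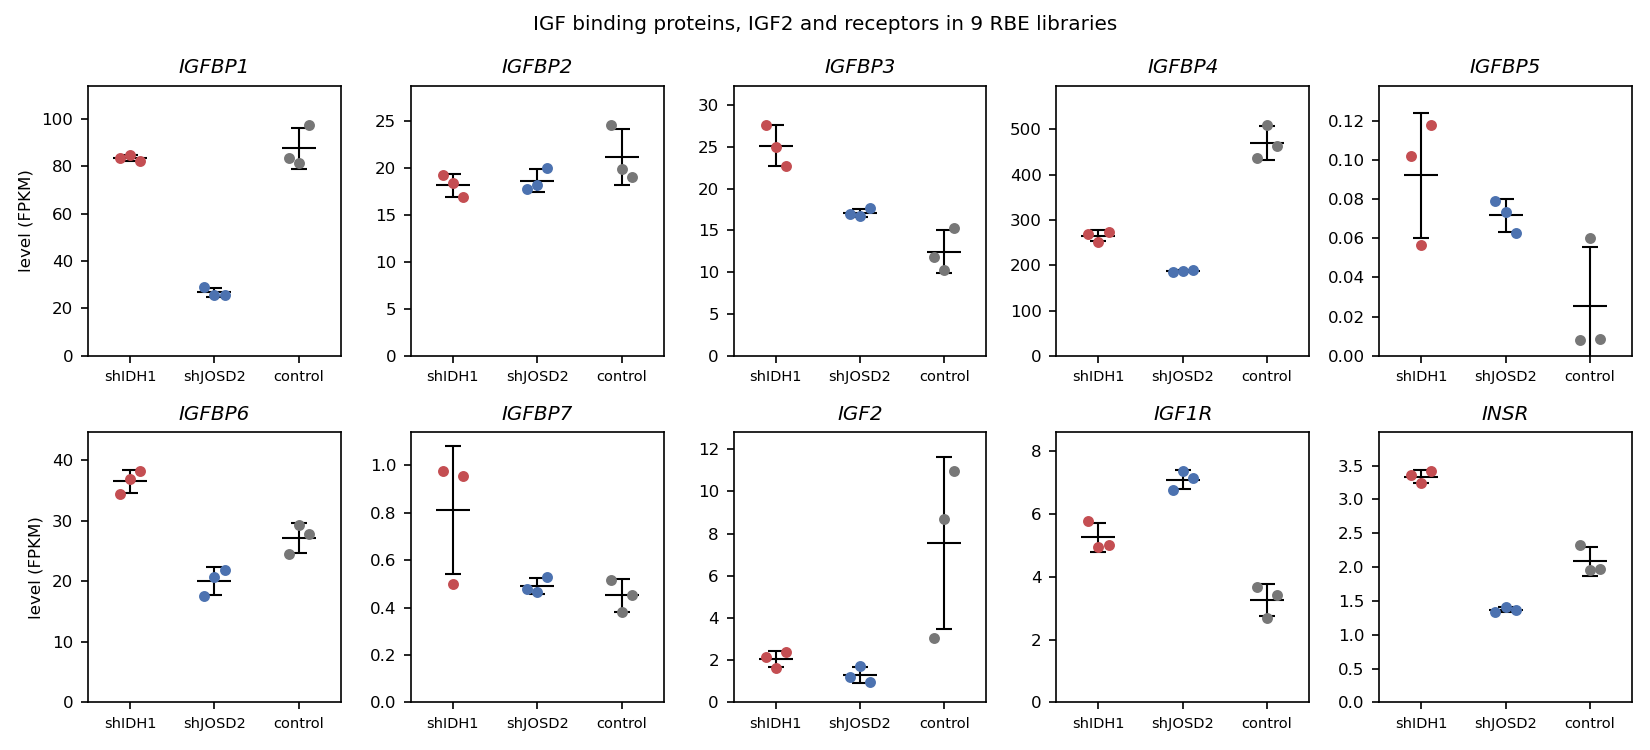
Level (FPKM, linear axes from 0) of the 10 IGF axis genes, with 1 point per library, the mean as a bar and the SD as whiskers, for shIDH1, shJOSD2 and control (n = 3 each). IGFBP1 and INSR are lowest in shJOSD2, IGFBP4 is highest in control, and the 3 control points of IGF2 range from 3.06 to 10.96 FPKM.

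Set directly against each other, the hairpins differed in 7 of the 10 genes: 6 were higher in shIDH1 than in shJOSD2 cells (IGFBP1, IGFBP3, IGFBP4, IGFBP6, IGFBP7 and INSR), 1 was lower (IGF1R) and IGFBP2, IGFBP5 and IGF2 did not pass. Over all tested genes 44.8% were called in this comparison, 20.8% as higher and 24% as lower. The median log2 difference was 0.75 over the 10 genes and -0.06 over all tested genes.

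IGFBP4, an inhibitor of IGF action that is released from its ligand by the protease PAPPA, was by far the most abundant of these transcripts. It stood at 270, 251 and 275 FPKM in shIDH1 libraries and at 185, 187 and 190 FPKM in shJOSD2 libraries, against 437, 511 and 463 FPKM in control libraries. The 3 groups did not overlap, and all 3 shJOSD2 libraries were the lowest. The log2 change was -0.83 ± 0.07 (SE) in shIDH1 against control (edgeR adjusted p = 1.29e-06), a level 1.78 times lower. It was -1.48 ± 0.08 in shJOSD2 against control (edgeR adjusted p = 6.61e-08), 2.79 times lower as fitted and 2.51 times lower by mean FPKM. The difference between the hairpins was 0.65 ± 0.07 (edgeR adjusted p = 1.51e-05). IGFBP4 ranked 87th among all genes by mean FPKM in shIDH1, 121st in shJOSD2 and 51st in control libraries.

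IGFBP1, the binding protein that insulin represses in the liver, separated the hairpins most. Its level was 83.4, 84.6 and 82.4 FPKM in shIDH1 libraries, 28.97, 25.7 and 25.8 FPKM in shJOSD2 libraries, and 83.6, 81.6 and 97.6 FPKM in control libraries. The shIDH1 libraries lay inside the control range, and every shJOSD2 library lay far under it. In shJOSD2 against control IGFBP1 fell by 1.86 on the log2 scale (SE 0.08, edgeR adjusted p = 1.26e-08), 3.62 times lower. In shIDH1 against control the log2 change was -0.07 ± 0.07 (edgeR adjusted p = 0.464), with a 95% interval from -0.23 to 0.09, and its sign turned to 0.04 with upper-quartile scaling. Between the hairpins IGFBP1 was 3.44 times higher in shIDH1 cells (log2 1.78 ± 0.08, edgeR adjusted p = 5.67e-09).

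IGFBP6, the IGF2-preferring member without the full cysteine motif, moved in opposite directions with the hairpins. The values were 34.5, 36.9 and 38.2 FPKM in shIDH1 libraries and 17.5, 20.7 and 21.9 in shJOSD2 libraries, against 24.5, 29.3 and 27.8 in control libraries. No shIDH1 or shJOSD2 library overlapped the control range. IGFBP6 rose by 0.42 ± 0.10 on the log2 scale in shIDH1 (edgeR adjusted p = 0.0038) and fell by 0.59 in shJOSD2 (SE 0.10, edgeR adjusted p = 0.000598). The difference between the hairpins was 1.01 ± 0.10 (edgeR adjusted p = 5.3e-06), 2.02 times higher in shIDH1 cells.

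IGFBP3, the main IGF carrier of serum and a protein with growth-inhibiting effects of its own, was highest with shIDH1. It stood at 27.7, 25.0 and 22.7 FPKM in shIDH1 libraries, 17.0, 16.7 and 17.7 FPKM in shJOSD2 libraries and 11.9, 10.2 and 15.3 FPKM in control libraries. The 3 groups did not overlap, though the highest control library came close to the shJOSD2 ones. IGFBP3 was 2.02 times higher in shIDH1 than in control cells (log2 1.01 ± 0.11, edgeR adjusted p = 9.16e-06) and 1.62 times higher than in shJOSD2 cells (log2 0.70 ± 0.11, edgeR adjusted p = 0.000235). The rise in shJOSD2 was small (log2 0.31 ± 0.11, edgeR adjusted p = 0.0444), and 10 of 21 alternatives lost the call. Without control replicate 2 it was 0.20 (edgeR adjusted p = 0.167), and the call was also lost without control replicate 1, without shIDH1 replicate 2 or 3 and without any of the shJOSD2 replicates.

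IGFBP2, a binding protein that is often raised in tumours, changed little. Its level was 19.2, 18.4 and 16.8 FPKM in shIDH1 libraries, 17.7, 18.2 and 19.98 FPKM in shJOSD2 libraries and 24.6, 19.8 and 19.03 FPKM in control libraries. All 3 groups overlapped, and control replicate 1 was the highest. The log2 change was -0.22 ± 0.08 in shIDH1 (edgeR adjusted p = 0.0444) and -0.33 ± 0.08 in shJOSD2 (edgeR adjusted p = 0.00837). The call in shIDH1 was lost in 16 of 21 alternatives. Among them were every left-out library except control replicate 3, and the value without control replicate 1 was -0.11 (edgeR adjusted p = 0.231). The call in shJOSD2 was lost in 3, with library sizes as the sole scaling (-0.18) and in both fits to FPKM (-0.17). Between the hairpins the difference was 0.11 ± 0.08 (edgeR adjusted p = 0.354), with a 95% interval from -0.08 to 0.29, and its sign turned to -0.05 with library sizes as the sole scaling.

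IGFBP7, the low-affinity matrix-associated relative, was weakly expressed. It stood at 0.976, 0.499 and 0.956 FPKM in shIDH1 libraries, 0.477, 0.466 and 0.528 FPKM in shJOSD2 libraries and 0.518, 0.382 and 0.453 FPKM in control libraries. The shIDH1 libraries 1 and 3 were the highest, and shIDH1 replicate 2 lay within the control range. IGFBP7 was called higher in shIDH1 than in control (log2 0.84 ± 0.30, edgeR adjusted p = 0.0356) and in shJOSD2 cells (log2 0.86 ± 0.30, edgeR adjusted p = 0.0343). Against control the call was lost in 7 of 20 alternatives, with 0.70 without shIDH1 replicate 1 (edgeR adjusted p = 0.124), 0.69 without shIDH1 replicate 3, 0.75 without control replicate 2, 0.85 without control replicate 3 and 0.67 against control replicate 1 alone. Between the hairpins it was lost in 9 of 19, among them the removal of shIDH1 replicate 1 or 3 (0.72 each) and of any shJOSD2 replicate (0.83 to 0.91). In shJOSD2 against control the log2 change was -0.02 ± 0.30, with a 95% interval from -0.68 to 0.64 (edgeR adjusted p = 0.963), and its sign turned to 0.06 with upper-quartile scaling.

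IGFBP5, a matrix-binding member of mesenchymal tissues, was close to the limit of detection. Its counts were 48, 26 and 58 in shIDH1 libraries and 38, 34 and 28 in shJOSD2 libraries, against 4, 28 and 4 in control libraries. The count of 4 in control replicates 1 and 3 may stand for as little as roughly 1 fragment. The level stayed under 0.12 FPKM in every library. The log2 change was 1.82 ± 0.72 in shIDH1 (edgeR adjusted p = 0.0545) and 1.32 ± 0.72 in shJOSD2 (edgeR adjusted p = 0.179). Without control replicate 2 the values were 3.41 (edgeR adjusted p = 0.000946) and 2.91 (edgeR adjusted p = 0.00389), and with control replicate 1 as the sole control they were 3.45 (edgeR adjusted p = 0.00718) and 2.95 (edgeR adjusted p = 0.0236). In shIDH1 the threshold was also passed with upper-quartile scaling (1.93, edgeR adjusted p = 0.0429), in DESeq2 (1.84, adjusted p = 0.0299) and in limma on log2(FPKM + 0.1) (0.63, adjusted p = 0.033). Between the hairpins the difference was 0.50 ± 0.69 (edgeR adjusted p = 0.607).

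IGFBP5 and IGFBP7 are typical of fibroblasts, so fibroblast markers are given beside them. Of the 7 listed fibroblast markers 5 could be tested, of which 4 rose in shIDH1 and 2 (ACTA2 and PDGFRB) rose in shJOSD2 against control and none fell. Of all tested genes, 24.5% rose and 25.6% fell in shIDH1, and 18.2% rose and 20.1% fell in shJOSD2. COL1A2, among the 4, averaged only 0.119 FPKM in shIDH1 and 0.0237 FPKM in control libraries. Between the hairpins, where IGFBP7 was called, 1 of the 5 markers was called, COL1A1, which was higher in shIDH1. Over all tested genes 44.8% were called in that comparison. Their summed level was 34.4 to 36.4 FPKM in shIDH1 libraries and 32.4 to 33.5 FPKM in shJOSD2 libraries, against 13.9 to 16.7 FPKM in control libraries. Most of it was ACTA2, at 27.3 ± 1.149 FPKM in shIDH1, 28.2 ± 0.595 in shJOSD2 and 12.8 ± 1.02 in control (SD, n = 3 each). The defining fibroblast transcripts DCN and LUM averaged under 0.02 FPKM in every group. The part of these markers in the IGFBP5 and IGFBP7 values was not tested.

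**Figure D2:**
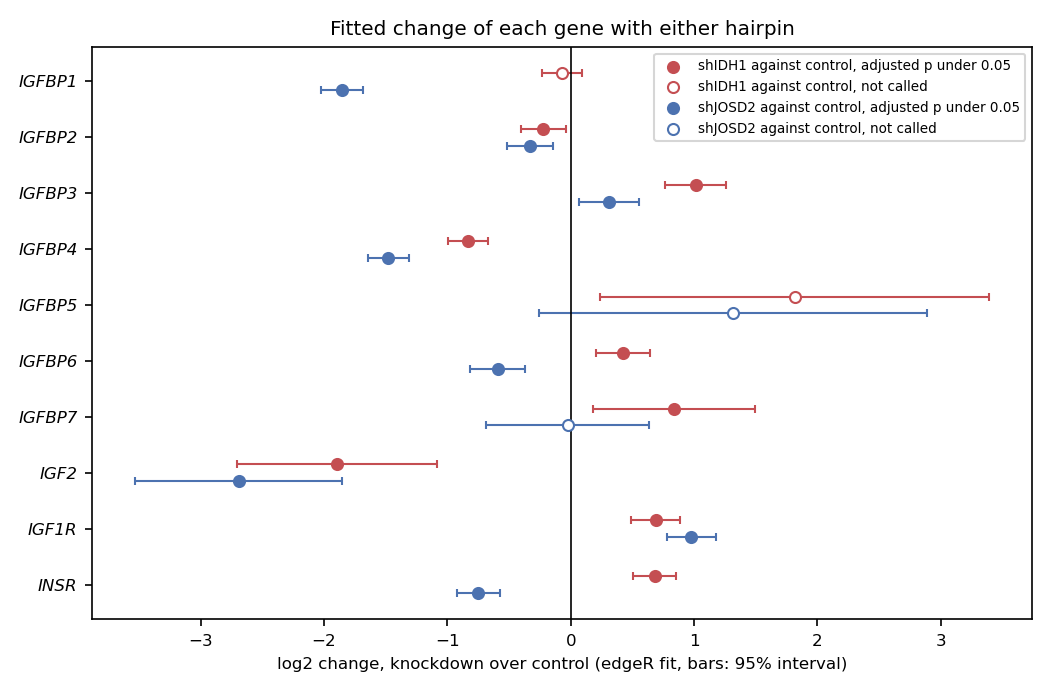
Fitted log2 change of each gene over control for shIDH1 (red) and shJOSD2 (blue), with 95% intervals that are not adjusted for the number of genes. Filled points passed an adjusted p of 0.05. IGFBP6 and INSR lie on opposite sides of 0 with the 2 hairpins, IGFBP4 and IGF2 on the left with both, and IGF1R and IGFBP3 on the right with both.

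Because FPKM is scaled by length, the high-affinity binding proteins can be added within a library. IGFBP1 to IGFBP6 summed to 428.5 ± 10.7 FPKM in shIDH1, 270 ± 4.98 FPKM in shJOSD2 and 618.8 ± 35.0 FPKM in control libraries (SD, n = 3 each). The groups did not overlap. The sum was 0.692 times the control sum in shIDH1 and 0.436 times the control sum in shJOSD2 libraries (exact two-sided permutation p = 0.1 for each, the smallest that 3 against 3 libraries can give). In shIDH1 libraries it was 1.59 times the shJOSD2 sum (exact two-sided permutation p = 0.1). IGFBP4 made up 60.4% to 63.1% of the sum in shIDH1, 69.0% to 69.7% in shJOSD2 and 74.4% to 78.4% in control libraries. IGFBP1 made up 18.95% to 20.3% in shIDH1, 9.36% to 10.9% in shJOSD2 and 12.5% to 15.7% in control libraries. IGFBP3 made up 5.23% to 6.37% in shIDH1, 6.22% to 6.42% in shJOSD2 and 1.57% to 2.45% in control libraries. The sum was smaller with both hairpins, and IGFBP3 held a larger share of it. These sums are of FPKM values, without the further scaling of the fitted changes.

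**Figure D3:**
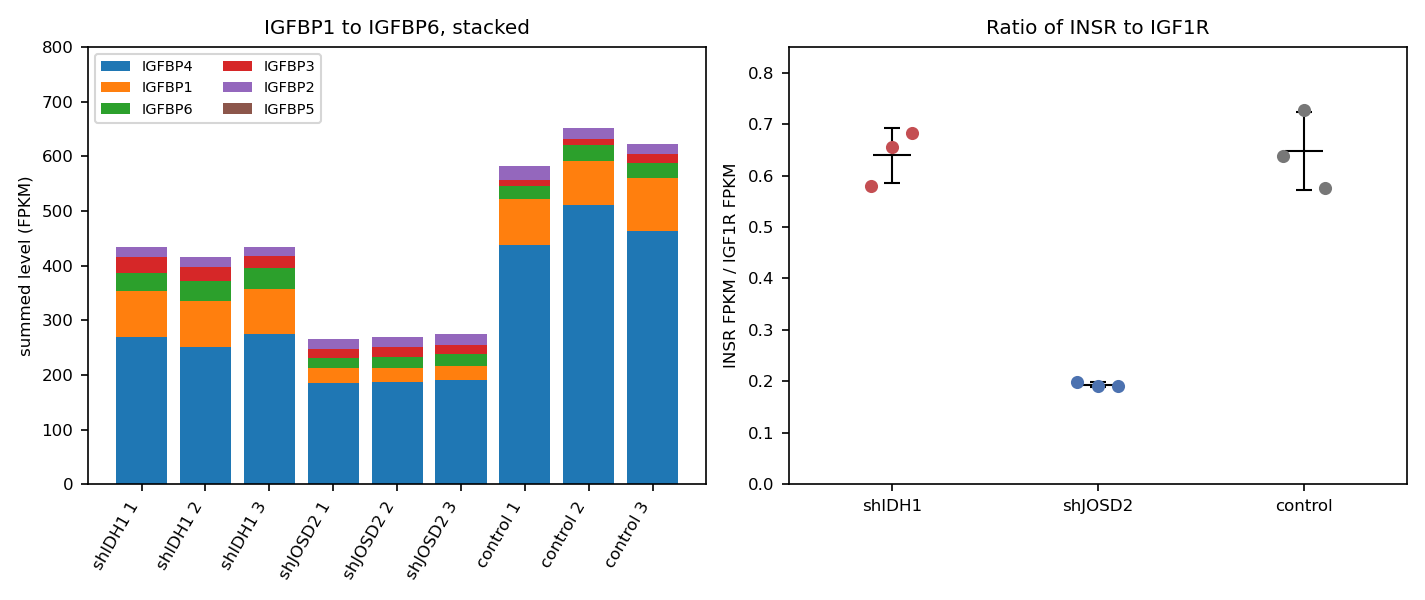
Left, level of IGFBP1 to IGFBP6 stacked in each of the 9 libraries (FPKM), where IGFBP4 is the largest block in each; right, ratio of INSR to IGF1R FPKM per library with mean and SD (n = 3 per group). The shJOSD2 ratios lie between 0.191 and 0.199, under every shIDH1 and control ratio.

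IGF2 was the IGF ligand with a clear signal in these cells. It stood at 2.13, 1.62 and 2.37 FPKM in shIDH1 libraries and 1.20, 1.73 and 0.981 FPKM in shJOSD2 libraries, against 3.06, 8.68 and 10.96 FPKM in control libraries. Every knockdown library was under every control library, but control replicate 1 was much nearer to them than control replicates 2 and 3, which were 2.83 and 3.58 times as high as it. With all libraries IGF2 was 3.72 times lower in shIDH1 than in control (log2 -1.90 ± 0.37, edgeR adjusted p = 0.000935) and 6.47 times lower in shJOSD2 than in control (log2 -2.69 ± 0.38, edgeR adjusted p = 0.000144). With control replicate 1 as the sole control the log2 change was -0.55 in shIDH1 (edgeR adjusted p = 0.164) and -1.35 in shJOSD2 (edgeR adjusted p = 0.00434). In that fit the single control library was assumed to vary like the libraries of the other groups. The size of the IGF2 change, and in shIDH1 the call, therefore rest on control replicates 2 and 3.

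Between the hairpins IGF2 differed by 0.80 ± 0.37 on the log2 scale (edgeR adjusted p = 0.106), with a 95% interval from -0.02 to 1.61. It was called higher in shIDH1 than in shJOSD2 cells in 2 alternatives, the fit to those 6 libraries alone (0.84, edgeR adjusted p = 0.00659) and the fit without control replicate 1 (0.80, edgeR adjusted p = 0.00598). IGF1 was at or near 0 in all libraries (at most 0.024 FPKM), as was the orphan insulin receptor relative INSRR (at most 0.0245 FPKM). The annotation places the read-through gene INS-IGF2 and the antisense gene IGF2-AS over IGF2. INS-IGF2 was not analysed here, IGF2-AS reached at most 0.102 FPKM, and the sources used here do not say whether strand was used in counting, so reads of overlapping genes may be shared.

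Other transcripts also separated control replicate 1 from control replicates 2 and 3, though for IGF2 control replicate 1 still lay above every knockdown library. H19, the untranslated RNA next to IGF2 that is imprinted in the opposite sense, stood at 0, 0.011 and 0.151 FPKM in shIDH1 libraries, 0.233, 0.107 and 0.028 FPKM in shJOSD2 libraries and 0.109, 0.918 and 1.53 FPKM in control libraries. IGF2BP1, which encodes a fetal RNA-binding protein that binds IGF2 mRNA, stood at 0.315, 0.298 and 0.221 FPKM in shIDH1 libraries, 0.268, 0.376 and 0.235 FPKM in shJOSD2 libraries and 0.155, 1.80 and 2.01 FPKM in control libraries. For both genes control replicate 1 lay among the knockdown libraries or under them. IGF2BP1 was called lower with either hairpin (log2 -2.26 and -2.32 in shIDH1 and shJOSD2, edgeR adjusted p = 0.00995 and 0.0117), but with control replicate 1 as the sole control its sign turned to 0.87 and 0.80. Both calls were lost in limma on log2(FPKM + 1), at -0.74 and -0.72 (limma adjusted p = 0.066 and 0.0819), and on log2(FPKM + 0.1), at -1.42 and -1.37 (limma adjusted p = 0.105 and 0.131). In shJOSD2 the call was also lost without shJOSD2 replicate 3 (-2.18, edgeR adjusted p = 0.0521) and without control replicate 3 (-1.90, edgeR adjusted p = 0.0512). H19 changed by -3.93 ± 1.16 in shIDH1 (edgeR adjusted p = 0.0135) and by -0.97 with the sole control (edgeR adjusted p = 0.703). That call was also lost without shIDH1 replicate 2 (-3.48, edgeR adjusted p = 0.0542) and without control replicate 3 (-3.22, edgeR adjusted p = 0.0615). In shJOSD2 H19 had a log2 value of -2.89 ± 1.08 (edgeR adjusted p = 0.0532), which turned to 0.06 with the sole control (edgeR adjusted p = 0.991).

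The hepatocyte transcripts APOA1 and ALB did the same. APOA1, the main protein of high-density lipoprotein, stood at 2.51, 3.19 and 3.25 FPKM in shIDH1 libraries, 3.68, 6.24 and 3.04 FPKM in shJOSD2 libraries and 2.91, 40.0 and 45.5 FPKM in control libraries. ALB, which encodes albumin, stayed between 0.122 and 0.269 FPKM in the 6 knockdown libraries and was at 0.104, 1.23 and 1.43 FPKM in control libraries. Control replicates 2 and 3 were thus high for APOA1 and ALB, and control replicate 1 was not. Of the 8 hepatocyte markers, 2 rose and 3 fell in shIDH1 and 2 rose and 4 fell in shJOSD2 against control. Of all tested genes, 24.5% rose and 25.6% fell in shIDH1, and 18.2% rose and 20.1% fell in shJOSD2. Besides APOA1 and ALB, APOB fell with both hairpins (log2 -3.54 and -3.12) and TTR fell in shJOSD2 (-2.92). The 2 that rose were FGB, which encodes a fibrinogen chain, and SERPINA1, which encodes alpha-1 antitrypsin, and for both all knockdown libraries lay above all 3 control libraries. FGB was at 42.9 ± 1.61 FPKM in shIDH1, 7.13 ± 0.187 in shJOSD2 and 1.53 to 1.87 in control libraries, and SERPINA1 at 48.9 ± 1.38, 46.3 ± 0.705 and 33.6 to 37.8 FPKM (SD, n = 3 each). With control replicate 1 as the sole control the log2 changes in shIDH1 and shJOSD2 turned to 0.08 and 0.45 for APOA1 and to 0.54 and 0.59 for ALB, none of them called by edgeR. In the same fit the log2 values in shIDH1 and shJOSD2 were -0.50 and -0.09 for APOB and 3.00 and 1.47 for TTR. The summed level of the 8 markers was 92.3 to 97.6 FPKM in shIDH1, 57.2 to 59.2 FPKM in shJOSD2 and 38.2 to 84.7 FPKM in control libraries, and 3 of the 8 were under 1 FPKM in all libraries. The part of these transcripts in the IGF2 result was not tested.

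**Figure D4:**
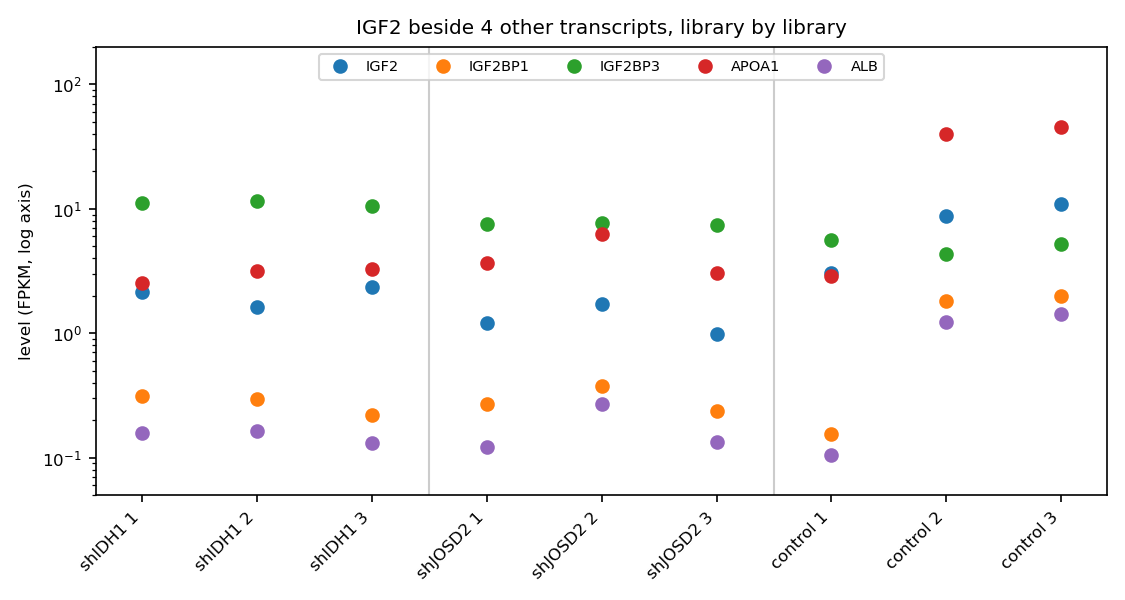
Level of IGF2 and 4 other transcripts in each library (FPKM, log axis), with shIDH1 libraries on the left, shJOSD2 in the middle and control on the right. IGF2, IGF2BP1, APOA1 and ALB are higher in control replicates 2 and 3 than in control replicate 1, while IGF2BP3 is not. Among these transcripts, control replicate 1 lies above every knockdown library for IGF2 only.

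IGF1R, the tyrosine kinase that mediates IGF signalling, was higher with both hairpins. It stood at 5.78, 4.95 and 5.00 FPKM in shIDH1 libraries and 6.75, 7.36 and 7.12 FPKM in shJOSD2 libraries, against 3.66, 2.69 and 3.41 FPKM in control libraries. The 3 groups did not overlap. IGF1R was 1.61 times higher in shIDH1 (log2 0.69 ± 0.09, edgeR adjusted p = 3.79e-05) and 1.97 times higher in shJOSD2 than in control cells (log2 0.98 ± 0.09, edgeR adjusted p = 4.97e-06). The shIDH1 level was slightly under the shJOSD2 level (log2 -0.29 ± 0.09, edgeR adjusted p = 0.0201). That call was lost in 5 of 20 alternatives, among them without shIDH1 replicate 2 (-0.25, edgeR adjusted p = 0.0843), without shIDH1 replicate 3 (-0.26), without shJOSD2 replicate 2 (-0.26) and without shJOSD2 replicate 3 (-0.29).

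INSR, the insulin receptor, went up with shIDH1 and down with shJOSD2. Its level was 3.36, 3.24 and 3.42 FPKM in shIDH1 libraries and 1.34, 1.41 and 1.36 FPKM in shJOSD2 libraries, against 2.33, 1.95 and 1.97 FPKM in control libraries. Each group was tight and none overlapped another. INSR rose by 0.68 ± 0.08 on the log2 scale in shIDH1 (edgeR adjusted p = 1.56e-05) and fell by 0.75 in shJOSD2 (SE 0.08, edgeR adjusted p = 1.7e-05). Between the hairpins it was 2.69 times higher in shIDH1 cells (log2 1.43 ± 0.08, edgeR adjusted p = 5e-08). The gene-level values do not separate the A and B isoforms of the receptor.

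The ratio of INSR to IGF1R followed from these changes. It was 0.640 ± 0.0533 in shIDH1 and 0.647 ± 0.0756 in control libraries (SD, n = 3 each, exact two-sided permutation p = 1). In shJOSD2 libraries it was 0.194 ± 0.00408, against 0.647 ± 0.0756 in control libraries (SD, n = 3 each, exact two-sided permutation p = 0.1, the smallest possible). The receptor transcripts thus rose together with shIDH1 and parted with shJOSD2, where the ratio was 0.3 times that of control.

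By mean FPKM the order of the 10 genes began with IGFBP4, IGFBP1 and IGFBP6 in every group and ended with IGFBP7 and IGFBP5. IGF2 stood under IGF1R and INSR with shIDH1 (2.04 ± 0.381, 5.24 ± 0.466 and 3.34 ± 0.0914 FPKM) and above both in control libraries (7.57 ± 4.07, 3.25 ± 0.504 and 2.08 ± 0.215 FPKM; SD, n = 3 each). With shIDH1 no neighbours in the order overlapped. With shJOSD2 the ranges of IGFBP6 and IGFBP2 overlapped, and so did those of INSR and IGF2. In control libraries the ranges of IGF2 and IGF1R overlapped, as did those of IGFBP3 and IGF2 and those of IGFBP6 and IGFBP2.

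For each gene the closest profiles across the 9 libraries were sought among 12408 other genes, by the root mean square difference of log2(FPKM + 1) after centring each gene on its mean. The closest to IGFBP4 were NQO1 (0.0856) and KCTD9 (0.0959), and the closest to IGFBP1 were ARPC5 (0.105) and HSP90AB1 (0.113). IGFBP3 was nearest to FAT4 (0.0845) and NHLRC3 (0.0851), IGFBP6 to PDLIM2 (0.0736) and SELENOS (0.0776), and IGFBP2 to NUDT18 (0.0604) and UACA (0.0637). INSR was nearest to SPAG9 (0.0459) and GNAQ (0.0477), and IGF1R to COL12A1 (0.0569) and NMRK1 (0.0693). IGFBP7 was nearest to ACVRL1 (0.0806) and ZNF783 (0.0879). IGF2 was nearest to S100A14 (0.28) and RBP4 (0.303). A gene that varies more gives larger differences, so they do not rank closeness between genes. The root mean square of the centred profile itself was 0.863 for IGF2, beside 0.139 for IGFBP2 and 0.177 for IGFBP7. S100A14 and RBP4 were higher in control replicates 2 and 3 than in control replicate 1, a split that their choice by likeness to IGF2 favours. The levels were 6.16 and 7.56 against 1.02 FPKM for S100A14 and 3.41 and 4.70 against 0.225 FPKM for RBP4. The profile of IGFBP5, nearest to SETDB2 (0.041) and the pseudogene PMS2P3 (0.0411), was almost flat on this scale. The measure is a description over 9 libraries with no test.

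The enzymes and partners that act on binding proteins rose more often than they fell. Of 14 tested genes of this list, 12 rose and 1 fell in shIDH1, and 8 rose and 3 fell in shJOSD2, with median log2 changes of 0.82 and 0.23 beside 0.01 and 0.03 over all tested genes. Of all tested genes, 24.5% rose and 25.6% fell in shIDH1, and 18.2% rose and 20.1% fell in shJOSD2. Among genes with at least 100 counts in 3 libraries, 9918 of 14617 were called in shIDH1 and 7835 in shJOSD2. Against control replicate 1 alone the medians of the list were 0.746 and 0.187, beside 0.0543 and 0.065 over all tested genes. PAPPA, the metalloprotease that cleaves IGFBP4, stood at 4.82 ± 0.425 FPKM in shIDH1, 2.78 ± 0.118 FPKM in shJOSD2 and 1.14 ± 0.163 FPKM in control libraries (SD, n = 3 each). It rose by 2.08 ± 0.11 and 1.14 ± 0.11 on the log2 scale in shIDH1 and shJOSD2 (edgeR adjusted p = 1.38e-08 and 5e-06), the opposite direction to its substrate IGFBP4. ADAM28, a metalloprotease reported to cleave IGFBP3, rose by 1.96 and 1.47. MMP7, the matrilysin of glandular epithelium, stood at 123.1 ± 6.12 FPKM in shIDH1, 8.25 ± 0.925 FPKM in shJOSD2 and 42.2 ± 9.62 FPKM in control libraries (SD, n = 3 each). Its log2 changes were 1.54 ± 0.13 and -2.50 ± 0.14, so MMP7, like INSR and IGFBP6, went up with shIDH1 and down with shJOSD2. ADAM12 rose by 2.22 in shJOSD2 and 0.68 in shIDH1. LRP1, an endocytic receptor that binds IGFBP3, rose by 1.11 in shJOSD2 and 0.82 in shIDH1, and ITGA5, a subunit of the fibronectin receptor, by 1.20 in shIDH1 and 0.88 in shJOSD2. The lysosomal protease CTSD rose by 1.35 in shIDH1 and by 0.20 in shJOSD2, where 10 alternatives lost the call. Among them were the removal of shIDH1 replicate 2, of any shJOSD2 replicate and of control replicate 1 or 3, with values from 0.17 to 0.24, and control replicate 1 alone (0.19, edgeR adjusted p = 0.195).

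Among relatives that share the binding-protein domain, 4 of 7 tested genes rose in each comparison with control, and 1 fell in shIDH1 and 0 in shJOSD2. Of all tested genes, 24.5% rose and 25.6% fell in shIDH1, and 18.2% rose and 20.1% fell in shJOSD2. The median log2 changes of these relatives were 1.67 and 0.44, beside 0.01 and 0.03 over all tested genes. Against control replicate 1 alone, with 8 relatives tested, they were 1.76 and 0.63, beside 0.0543 and 0.065. All 4 that rose with shIDH1 were CCN genes, matricellular proteins. CCN2 stood at 397.5 ± 33.7 FPKM in shIDH1, 74.0 ± 5.21 FPKM in shJOSD2 and 53.0 ± 8.56 FPKM in control libraries (SD, n = 3 each), log2 changes of 2.91 ± 0.10 and 0.34 ± 0.09 (edgeR adjusted p = 9.92e-10 and 0.0132). The smaller change was 0.25 without control replicate 2 (edgeR adjusted p = 0.0531) and 0.13 against control replicate 1 alone (edgeR adjusted p = 0.38). CCN1 rose by 1.67 in shIDH1 and 0.44 in shJOSD2, CCN5 by 1.78 and 0.77, and CCN3 by 0.49 and 1.26. With shIDH1, CCN2 was thus more abundant per length than any of the IGF binding proteins.

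The signalling genes downstream of the receptors were mixed. Of 33 tested genes, 12 rose and 8 fell in shIDH1 and 10 rose and 10 fell in shJOSD2, with median log2 changes of -0.04 and 0.01, close to those of all genes. Of all tested genes, 24.5% rose and 25.6% fell in shIDH1, and 18.2% rose and 20.1% fell in shJOSD2. Among genes with at least 100 counts in 3 libraries, 9918 of 14617 were called in shIDH1 and 7835 in shJOSD2. Against control replicate 1 alone the medians of the list were -0.118 and 0.00372, beside 0.0543 and 0.065 over all tested genes. IGF2R, the receptor that carries IGF2 to lysosomes, rose to 50.5 ± 1.56 FPKM in shIDH1 and 45.03 ± 1.502 FPKM in shJOSD2, against 23.8 ± 1.48 FPKM in control libraries (SD, n = 3 each), log2 changes of 1.08 ± 0.06 and 0.77 ± 0.06 (edgeR adjusted p = 2e-08 and 1.05e-06). IRS2, an adaptor of the activated receptors, rose by 1.27 in shIDH1 and 0.56 in shJOSD2. The regulatory subunits of phosphoinositide 3-kinase differed: PIK3R1 rose by 1.49 and 0.70, whereas PIK3R2 rose by 1.06 in shJOSD2 and had a log2 value of -0.16 in shIDH1 (edgeR adjusted p = 0.231), or -0.36 against control replicate 1 alone (edgeR adjusted p = 0.0379). The forkhead factor FOXO4 rose by 1.22 in shIDH1 and by 0.43 in shJOSD2, where the call was lost against control replicate 1 alone (0.39, edgeR adjusted p = 0.0801).

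Genes known as FOXO targets, which insulin and IGF signalling restrain, rose more often than they fell. Of 15 tested, 9 rose and 2 fell in shIDH1, and 11 rose and 3 fell in shJOSD2. Of all tested genes, 24.5% rose and 25.6% fell in shIDH1, and 18.2% rose and 20.1% fell in shJOSD2. Among genes with at least 100 counts in 3 libraries, 9918 of 14617 were called in shIDH1 and 7835 in shJOSD2. The median log2 changes of the list were 0.52 and 0.62, beside 0.01 and 0.03 over all tested genes. Against control replicate 1 alone they were 0.436 and 0.736, beside 0.0543 and 0.065. GADD45A, a growth-arrest gene, rose by 2.15 in shIDH1 and 0.88 in shJOSD2, and CDKN1B, which encodes the cell-cycle inhibitor p27, by 1.21 and 0.85. FBXO32, a ubiquitin ligase subunit, rose by 1.76 and 1.37, and the transcriptional regulator CITED2 by 1.63 and 1.05. TXNIP, which limits glucose uptake, fell to 4.65 ± 0.875 FPKM in shIDH1 and rose to 96.0 ± 7.97 FPKM in shJOSD2, against 17.8 ± 2.70 FPKM in control libraries (SD, n = 3 each). SOD2 fell with both hairpins, by log2 changes of -1.13 in shIDH1 and -0.37 in shJOSD2. In shJOSD2 PDK4 (-0.76) and PCK1 (-1.49) fell too. PDK4 rose by 0.66 in shIDH1, and PCK1 was at most 0.186 FPKM in any library. SESN3, a stress-induced inhibitor of the mTOR pathway, rose by 1.83 in shJOSD2 and had a log2 value of -0.14 in shIDH1 (edgeR adjusted p = 0.587), which turned to 0.11 without control replicate 1 and to -0.53 against control replicate 1 alone (edgeR adjusted p = 0.0277). IGFBP1, a FOXO target in hepatocytes, did not follow the list, being lower in shJOSD2 and within the control range in shIDH1.

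Among regulators of IGF2 transcription and mRNA, 4 of 6 tested genes rose in each comparison with control, 2 fell in shIDH1 and 1 fell in shJOSD2. Of all tested genes, 24.5% rose and 25.6% fell in shIDH1, and 18.2% rose and 20.1% fell in shJOSD2. The median log2 changes of these regulators were 0.64 and 0.54, beside 0.01 and 0.03 over all tested genes. Against control replicate 1 alone they were 0.721 and 0.7, beside 0.0543 and 0.065. IGF2BP3, another of the IGF2 mRNA-binding proteins, rose by 1.14 ± 0.07 in shIDH1 and 0.44 ± 0.07 in shJOSD2. The architectural factor HMGA2 rose by 0.62 and 1.57, and the zinc finger factor PLAG1, an activator of IGF2 transcription, by 0.67 and 1.01. The genes that fell, IGF2BP1 and, in shIDH1, H19, were those high in control replicates 2 and 3. PLAG1, HMGA2 and IGF2BP3 were higher with both hairpins. IGF2 was lower with both, by an amount that rested on control replicates 2 and 3. The part of these regulators in the IGF2 level was not tested.

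**Figure D5:**
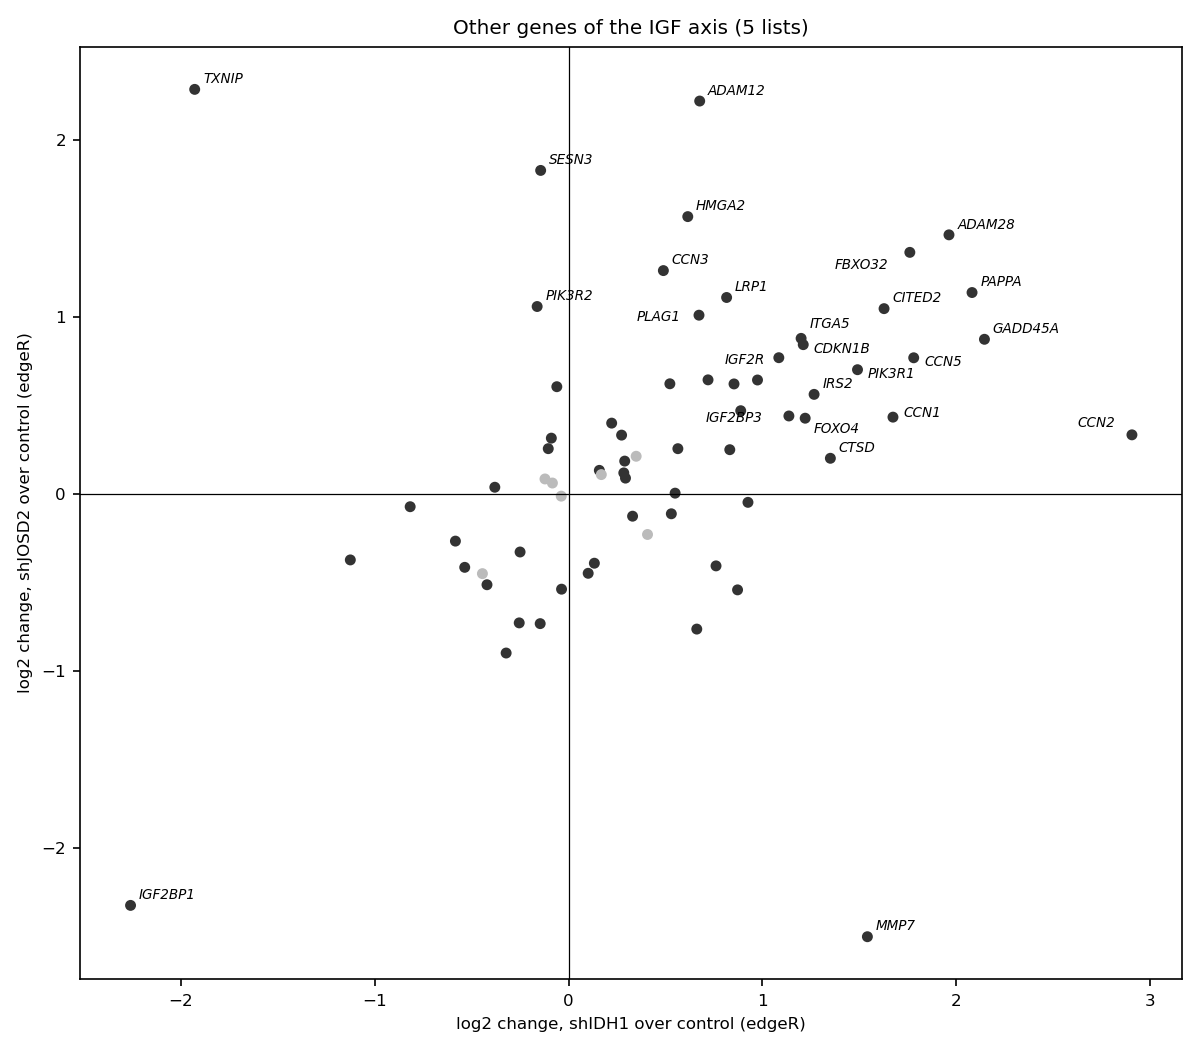
Log2 change in shIDH1 (horizontal) and shJOSD2 (vertical) over control of the genes of the 5 lists with a mean of at least 1 FPKM in a group. Dark points passed an adjusted p of 0.05 in at least 1 of these comparisons. Named points are called genes with an absolute log2 change of at least 1, up to 5 per list and comparison. Both axes share the control libraries. MMP7 and TXNIP lie in opposite corners, and CCN2 lies far to the right at 2.91.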

How the data were processed

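RNA of 9 RBE libraries had been selected with oligo(dT), made into strand-marked libraries with molecular identifiers and sequenced as read pairs, per the labels' protocols. The genome build was GRCh38 and the tools were StringTie 1.3.4d, HISAT2 2.0.4, cutadapt 1.9 and UMI-tools, per the submitters' processing notes; what each did, and how strand entered the counting, is not given in the sources used here. The authors deposited whole-number counts that are not normalized and FPKM values for each gene and library, per the file headers. Pairs of replicates differed beyond sampling noise (chi-square per degree of freedom of 3.63 to 10.1 after division by 4), and each library was counted once.

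The counts were tested with edgeR 4.0.16 in R 4.3.3 (filterByExpr, TMM, quasi-likelihood F-test) in 1 fit of all 9 libraries, with Benjamini-Hochberg adjustment at 0.05 over 21492 genes. Standard errors were derived from the log2 change and F. The fit was tested on simulated data. Sums and ratios of FPKM were compared by exact permutation. Alternatives used DESeq2 1.42.0, limma 3.58.1 on log2(FPKM + 1) and log2(FPKM + 0.1), other filters and scalings, a replicate block, and fewer libraries. The labels repeat replicate numbers 1 to 3 in each group, but libraries with the same number did not deviate together (correlations of -0.018 to 0.0378), so the numbers were not taken to pair them.

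Genes named outside the 10 were those called in a comparison with control with an absolute log2 change of at least 1 and at least 1 FPKM in a group, up to 5 per list and comparison, IGF1, IGF2R and INSRR, the 2 closest profiles, and marker genes. H19, APOA1 and ALB were described for each library after their values were seen. SOD2, PDK4 and PCK1 were named after their values were seen, as FOXO targets that fell. The genes, lists and tests were chosen with earlier results of these data known. Coding stretches came from GENCODE v29 transcripts and promoters from RefSeq (GRCh38.p14). Figures were drawn with matplotlib 3.10.9.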

Additional observations from a re-analysis of the deposited data

How the results depend on the processing

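Of the alternative values of the 10 genes, 539 kept direction and side of the threshold, 51 lost a call, 9 gained one and 12 changed sign. The sign changes were all in genes not called: IGFBP1 in shIDH1 against control with upper-quartile scaling (0.04) and with control replicate 1 alone (0.03), and from -0.11 to 0.02 with a library left out; IGFBP7 in shJOSD2 against control with upper-quartile scaling (0.06), library sizes alone (0.13) and limma on FPKM (0.04 and 0.11), and from -0.11 to 0.07 with a library left out; and IGFBP2 in shIDH1 against shJOSD2 with library sizes alone (-0.05) and limma (-0.04 each). IGF2BP1 turned to 0.87 in shIDH1 and 0.80 in shJOSD2 against control replicate 1 alone, where H19 in shJOSD2, not called, turned to 0.06, and SESN3 in shIDH1, not called, ranged from -0.36 to 0.11 with a library left out. The cause was not tested.

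IGFBP4, IGFBP6, IGF1R and INSR against control kept their calls in every alternative run, as did IGFBP3 in shIDH1 and IGFBP1 and IGF2 in shJOSD2. The binding-protein sum in shIDH1 was 1.66 times that in shJOSD2 in TPM, beside 1.59 in FPKM; the INSR to IGF1R ratio is the same in TPM by construction. Library sizes alone shifted the median gene in shJOSD2 against control to 0.18 and gave 5638 higher and 2934 lower calls, beside 3907 and 4330; in shIDH1 against shJOSD2 they shifted it to -0.21, with 3316 higher and 6653 lower, beside 4479 and 5156. Upper-quartile factors shifted it to 0.12 in both comparisons with control, with 6176 higher and 4682 lower in shIDH1, beside 5258 and 5511, and 4827 and 3491 in shJOSD2. With the replicate block IGFBP2 in shIDH1 lost its call (-0.22, edgeR adjusted p = 0.0573), as did CTSD in shJOSD2 (0.20, edgeR adjusted p = 0.0792); among the 10 genes, the list genes named by the rule, H19, STC2 and IGF2BP2, no other call changed, and the calls over all genes were 10416 and 7823 against control, beside 10769 and 8237.

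Depth limits IGFBP5 and IGFBP7. At least 100 counts in 3 libraries removed both from the test, and division of counts by 4 removed IGFBP5.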

Other observations

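IGFBP7-AS1, the antisense gene of IGFBP7, was at 0.0135, 0.0207 and 0 FPKM in shIDH1 libraries, 0.0161, 0.0605 and 0.0156 FPKM in shJOSD2 libraries and 0.00826, 0 and 0 FPKM in control libraries, far under IGFBP7 in each library. IGF2BP2, the third of the IGF2 mRNA-binding proteins and the most abundant, stood at 31.7, 33.9 and 34.1 FPKM in shIDH1 libraries, 30.4, 28.5 and 28.9 FPKM in shJOSD2 libraries and 17.8, 15.6 and 17.3 FPKM in control libraries. All 6 knockdown libraries were above all control libraries, and control replicate 1 did not stand apart for this gene. STC2, which encodes an inhibitor of PAPPA, changed by 0.87 ± 0.14 on the log2 scale in shIDH1 and by -0.54 ± 0.14 in shJOSD2 against control (edgeR adjusted p = 0.000154 and 0.00735). In shJOSD2 the STC2 call was lost with control replicate 1 as the sole control (-0.33, edgeR adjusted p = 0.218) and in limma (-0.34 and -0.38, limma adjusted p = 0.0639 and 0.0519). STC2 and IGF2BP2 were chosen after their values were seen.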
